A study of Mus musculus with 6 samples.

Results

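Low-ranked WT-only peaks between genes are sites of accessible chromatin that stood late in the peak list of regulatory T cells (Treg cells) with intact Bcl11b and had no counterpart in the list of Treg cells labelled Bcl11b knockout. They were selected by their place in the list and in the genome: a peak stood in the last 50% of the rows of the WT list, no peak of the KO list lay within 500 bp of its edges, and its midpoint was outside every protein-coding gene and 1 to 100 kb from the nearest gene end. The rule found 2660 of the 38258 WT peaks, in a series of 74440 peaks over both lists. In what follows, WT-only means that no KO peak lay within 500 bp, KO-only is the same with the lists exchanged, shared means an overlap, and low-ranked means the last 50% of the rows. A peak missing from a list was not called there, and the site may still have been open.

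ATAC-seq, which tags open DNA with a transposase, gave the map of accessible chromatin. CD4+YFP+ cells were sorted from spleen and draining lymph nodes of C57BL/6 mice, with 100000 cells lysed per sample. The 3 WT samples were Bcl11b w/w and the 3 KO samples Bcl11b f/f. Both groups carried Foxp3-IRES-YFP-Cre, so that YFP and Cre came from the Foxp3 gene and marked cells that expressed Foxp3. The sources used here give no age, sex or pooling of the animals. Each group had 1 list of peaks for its 3 samples together and no read counts. The depth per sample is therefore unknown, the spread between replicates could not be measured, and every difference below is a description of a pair of lists without a test. Intervals are 95% intervals, exact Clopper-Pearson for shares and from order statistics for medians, and they cover counting error only. In sorted bulk cells, fewer cells with an open site and a less open site in each cell cannot be told apart.

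Open chromatin between genes includes distal enhancers, stretches of DNA that bind transcription factors and can act on a gene over long distances. Bcl11b is a zinc-finger transcription factor needed for T cell commitment and for the identity of mature T cells, Treg cells among them. Foxp3 is the factor that defines the Treg lineage. Of 26 genes of a Treg identity list, 18 had a peak within 1 kb of a gene end in both lists, Il2ra, Ctla4 and Ikzf2 among them, and Foxp3 had none in either list. The same was seen at 2 of 10 B cell genes, 2 of 7 CD8 T cell genes, 6 of 14 myeloid genes, 1 of 10 erythroid and megakaryocyte genes, 1 of 12 non-lymphoid genes and 8 of 24 genes of a cytotoxic, NK and innate lymphoid list. Over all protein-coding genes it was 10396 of 21887 (47.5%).

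The letters of a peak could be read only inside the listed windows around transcript starts. Of the 2660 peaks, 28 (1.05%, interval 0.701 to 1.52%) overlapped such a window, and 4 lay whole inside one, each at the start of a lncRNA gene. These 4 are shown because they are the peaks of the set whose letters are known, not because they differ from the rest. Sequences are from RefSeq (GRCm38.p6, the coordinates of build mm10), 5′ to 3′ on the strand of the lncRNA gene, and capitals mark matches to the GATA, KLF and NFAT motifs spelled out after them. The peak at chr12:79925466-79925684 (minus strand) lay 77.3 kb from Rad51b, a gene of DNA repair by recombination, and 20.3 kb from the nearest KO peak. The peak at chr13:94306828-94307046 (minus strand) lay 21.1 kb from Scamp1, which encodes a membrane carrier protein. The peak at chr2:163122394-163122612 (plus strand) lay 32.9 kb from Gtsf1l and only 0.846 kb from a KO peak. The peak at chr6:145379431-145379649 (minus strand) lay 9.77 kb from Lmntd1 and 19.2 kb from the nearest KO peak.
9430078K24Rik: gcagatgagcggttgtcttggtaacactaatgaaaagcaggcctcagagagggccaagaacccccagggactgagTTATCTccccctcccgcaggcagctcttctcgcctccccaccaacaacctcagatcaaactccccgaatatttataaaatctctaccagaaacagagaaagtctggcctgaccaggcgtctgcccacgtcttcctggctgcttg
Gm38653: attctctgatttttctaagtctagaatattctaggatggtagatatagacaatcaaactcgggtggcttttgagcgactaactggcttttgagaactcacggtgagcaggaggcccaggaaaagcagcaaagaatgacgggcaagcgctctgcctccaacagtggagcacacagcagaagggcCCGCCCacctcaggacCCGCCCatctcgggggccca
Gm11454: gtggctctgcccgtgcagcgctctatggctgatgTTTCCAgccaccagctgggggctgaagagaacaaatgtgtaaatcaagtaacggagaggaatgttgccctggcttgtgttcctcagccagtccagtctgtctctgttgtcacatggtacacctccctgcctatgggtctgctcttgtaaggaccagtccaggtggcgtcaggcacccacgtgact
LOC105247329: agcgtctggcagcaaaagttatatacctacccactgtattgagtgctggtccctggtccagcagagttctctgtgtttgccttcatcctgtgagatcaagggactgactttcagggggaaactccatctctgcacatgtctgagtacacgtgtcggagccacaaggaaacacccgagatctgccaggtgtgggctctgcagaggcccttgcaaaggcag

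Each of the 4 peaks was 219 bases long, with a GC content of 53.0 to 55.7% and 4 to 8 CpG dinucleotides. In the middle 219 bases of all 32851 listed windows the medians were 53.0% and 5 CpG, and in 11588 lncRNA windows 48.4% and 3 CpG. The capitals show a GATA match (AGATAA) at 9430078K24Rik, a pair of KLF matches (GGGCGG) at Gm38653 and an NFAT match (TTTCCA) at Gm11454. Both strands were searched, and these motifs stood in 8.51%, 32.1% and 16.1% of the windows. An E-box (CANNTG, left in lower case, in 61.7% of windows) was found in 3 of the 4 peaks and did not overlap the capitals. The cores of ETS (GGAAGT, 18.3% of windows) and RUNX (TGTGGT, 12.2%), families that are abundant in T cells, were in 0 of the 4. So were AP-1 (TGANTCA, 5.95%), TCF (TTCAAAG, 3.68%), STAT (TTCNNNGAA, 6.05%), NFKB (GGGANTTCC, 1.33%) and the IRF motif (2.48%). Of 11 low-ranked shared peaks between genes that lay whole in a window, 5 held the ETS core and 2 the RUNX core, and of 4 KO-only ones 1 held each. These numbers are too small to compare, and a match describes letters, not a bound site.

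Among all WT peaks, 9047 of 38258 (23.6%) were WT-only, and among all KO peaks 6639 of 36182 (18.3%) were KO-only. Of the 6702 low-ranked WT peaks between genes, 2660 were WT-only (39.7%, interval 38.5 to 40.9%), 3626 were overlapped by a KO peak and 416 had a KO peak within 500 bp without overlap. The mirror choice in the KO list gave 1916 of 6473 (29.6%, interval 28.5 to 30.7%). Inside protein-coding genes 4328 of 10202 low-ranked WT peaks were WT-only (42.4%), so the space between genes did not hold a higher share than the genes. These shares belong to the rule and are given as a description. Cutting the KO list to its first 75% raised the number of WT-only peaks to 4565, and cutting the WT list the same way lowered it to 1006.

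The share without a KO counterpart rose with each 10% of rows. Between genes it was 0 of 332 peaks in the first 10% of the WT list, which allows up to 1.10%, then 1.06%, 4.75%, 7.07% and 11.3% up to the middle of the list. The last 50% held shares of 17.6%, 28.7%, 39.1%, 49.6% and 63.5%, which came from 229, 388, 548, 663 and 832 peaks. The set was therefore weighted to the end of the list, with a median row of 31567.5. In the KO list the KO-only share began higher, at 2.39%, and ended lower, at 46.2% (interval 43.5 to 48.9%, against 60.8 to 66.1% in WT). The files give no height for a peak, and that late rows are weaker peaks is inferred from their order. Rows were split into blocks wherever the chromosome and position stepped back, so each block is sorted by position by definition. Within the last 50% of rows the WT list fell into 67 such blocks of 10 to 570 rows. Only the length of the blocks, not the sorting within them, bears on whether they are ties in a ranking. The WT-only share was 7.14% (3 of 42) in the first of these blocks, 39.6% (38 of 96) in block 34 and 71.1% (140 of 197) in block 60.

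**Figure D1:**
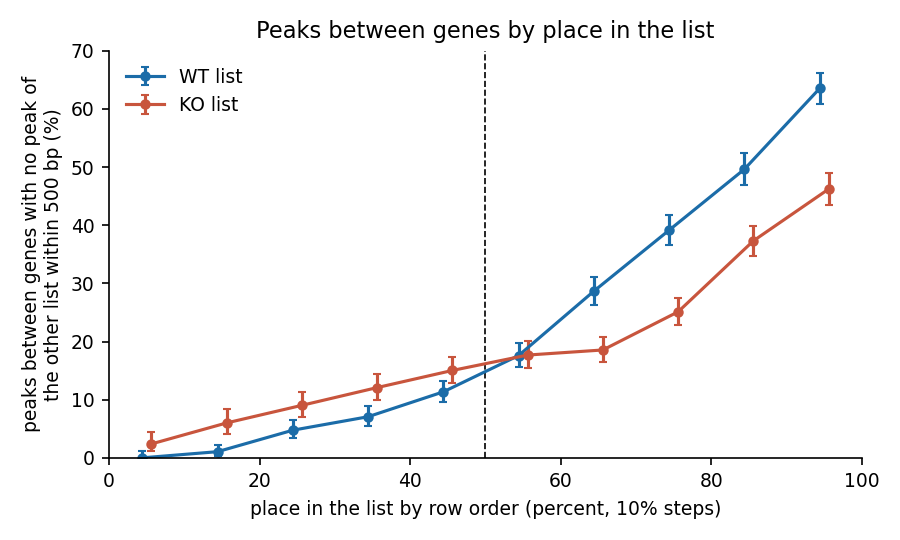
Share of peaks between genes with no peak of the other list within 500 bp (vertical axis, percent) by place in the list in steps of 10% of rows (horizontal axis), for the WT and the KO list, with exact 95% intervals; the dashed line marks the start of the low-ranked rows. The WT share climbs from 0 to 63.5% and the KO share from 2.39 to 46.2%.

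The peaks at the edges of the rule were close to one another. The first chosen row was 19138, a peak 25.3 kb from Ppp2r5a, which encodes a regulatory subunit of protein phosphatase 2A, and the last WT-only peak between genes ahead of the limit stood in row 19108. The next rows chosen were 19154, near Atp6v0d2, a subunit of the proton pump, and 19220, near Odc1, the enzyme that begins polyamine synthesis. The last rows were 38247 near Itgb5, an integrin chain, 38248 near Rps6ka2, a ribosomal S6 kinase, and 38258 near Nxf2, an RNA export factor gene on X. The smallest gap to a KO peak was 503 bp among the chosen peaks and the largest among those left out for this reason was 499 bp. Distances to the gene end ran from 1002 to 99586 bp inside the limits, with 997 and 100064 bp just outside.

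Most of these sites were kilobases away from any KO peak. The median gap to the nearest KO peak was 11.7 kb (interval 11.1 to 12.6, quartiles 5.41 and 26.996 kb). Within 2 kb of a KO peak lay 9.62%, within 10 kb 45.1% and within 50 kb 87.3%. KO-only peaks chosen the same way had a median gap to the WT list of 12.2 kb (interval 11.2 to 13.3), with 10.8%, 44.2% and 83.9% inside these distances. The farthest 11 were more than 1 Mb from a KO peak, among them a pair near Cdh7 and 1 near Cdh18, genes of cadherin adhesion proteins, 2 on X and 2 on Y.

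The distance to genes differed little between the sets. The chosen peaks lay a median of 16.4 kb (interval 15.4 to 17.2) from the nearest gene end, low-ranked shared peaks 15.6 kb (14.6 to 16.4) and KO-only peaks 17.6 kb (16.6 to 18.8). Within 10 kb of a gene end were 33.6%, and over 50 kb away 16.2%. Where the strand of the nearest gene was listed, 1087 of 2095 lay upstream of it (51.9%, interval 49.7 to 54.0%), against 52.9% of shared and 52.5% of KO-only peaks. A lncRNA gene held 464 of them (17.4%, interval 16.02 to 18.9%), against 17.6% and 18.1%. A miRNA gene lay within 5 kb of 9 peaks (0.338%, interval 0.155 to 0.641%). The same held for 11 KO-only peaks (0.574%, 0.287 to 1.02%) and 19 low-ranked shared peaks (0.524%). The 9 were at Mir34a (1.41 kb), a p53 target, Mir129-1 (0.654 kb), Mir675 (3.39 kb), which is cut from the H19 transcript, and at Mir1949, Mir3473c, Mir680-3, Mir6417 and, with a pair of peaks, Mir3965, all of them named after their values were seen.

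The neighbourhood was slightly richer in shared peaks than that of KO-only peaks and slightly poorer than that of shared ones. A shared peak lay within 20 kb of 59.8% of the chosen peaks (interval 57.9 to 61.6%), of 55.9% of KO-only peaks (53.6 to 58.1%) and, counting other peaks, of 64.4% of low-ranked shared peaks (62.8 to 66.0%). The nearest gene had a gene-end peak in both lists for 60.04% (interval 58.1 to 61.9%), against 54.3% for KO-only (52.0 to 56.5%) and 62.3% for shared peaks (60.7 to 63.9%). It had one in WT alone for 3.35%, in KO alone for 2.22% and in neither for 34.4%. For low-ranked shared WT peaks the first and second of these were 2.54% and 2.65%, and for KO-only peaks 2.71% and 3.601%.

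Chromosome X stood apart. There, 125 of 220 low-ranked WT peaks between genes were WT-only (56.8%, interval 49.99 to 63.5%), against 2533 of 6477 on the autosomes (39.1%, interval 37.9 to 40.3%). In the KO list the shares were 23.4% on X and 29.7% on the autosomes. A run of 11 peaks near Pls3 added to the count on X, and without the peaks nearest to Pls3 the share was 54.5% (interval 47.5 to 61.4%, 114 of 209). The share on X was above that on the autosomes in every processing alternative that kept X. The sex of the animals, which the labels do not give, was not tested as part of this difference.

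Among autosomes, the highest WT-only share was on chromosome 10 (45.1%, 207 of 459) and the lowest on chromosomes 19 (31.6%, 49 of 155) and 11 (32.9%). Chromosomes with more genes per Mb tended to lower WT-only and higher KO-only shares. Over 19 autosomes the Spearman correlation was -0.447 (Pearson's r -0.550) for WT-only and 0.712 (r 0.699) for KO-only shares, a description over chromosomes whose peaks come from the same pair of lists. The same appeared peak by peak for WT: with 0 to 4 protein-coding genes within 500 kb on either side the WT-only share was 46.8% (interval 43.7 to 49.95%), with 5 to 9 40.8%, with 10 to 14 39.8%, with 15 to 24 35.4% and with 25 or more 34.5% (31.3 to 37.8%). The KO-only share in these classes was 30.6%, 27.6%, 28.2%, 31.7% and 32.6%, with no steady trend.

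**Figure D2:**
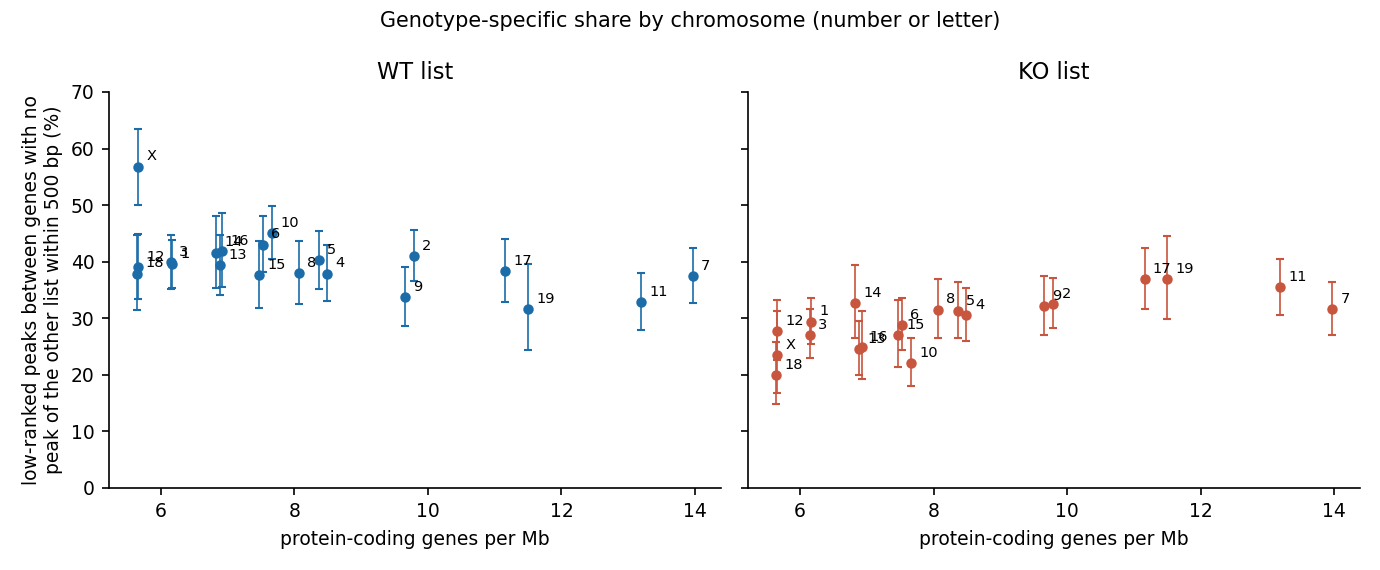
Share of low-ranked peaks between genes with no peak of the other list within 500 bp (vertical axis, percent) against protein-coding genes per Mb (horizontal axis), 1 point per chromosome with its exact 95% interval, WT list left and KO list right. X lies highest in WT at 56.8%. KO shares are highest on the gene-rich autosomes 11, 17 and 19, whereas chromosome 7, with the most genes per Mb (13.97), lies at 31.6%.

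Most of these peaks stood apart from others of the set. Another WT peak of any kind lay within 10 kb, midpoint to midpoint, of 50.3% of them and of 52.1% of low-ranked shared peaks. With steps of 10 kb or less, 2274 were single, 156 formed pairs and there were 22 runs of 3 or more, so that 14.5% were in pairs or runs, and 14.4% of KO-only peaks. The longest run had 11 peaks in 29.46 kb of X, from 75729790 to 75759249 on mm10, 26.5 to 55.8 kb past the end of Pls3, an actin-bundling protein gene. It lay inside the lncRNA gene 4933407K13Rik, which covers the tandem repeat Dxz4, and no shared or KO-only peak lay within it. The sources used here do not say how reads from near-identical repeat units were placed, so these 11 peaks are uncertain. The other 21 runs had 3 peaks each, and 4 of them enclosed a shared or KO-only peak. The 4 shortest lay upstream of Ust (chr10:8548867-8550614), a sulfotransferase gene, upstream of Tars (chr15:11406779-11408754), which encodes threonyl-tRNA synthetase, near Cwh43 (chr5:73379798-73382861), a gene of GPI anchor lipid remodelling, and near Gnb4 (chr3:32656034-32660941), a G protein beta subunit gene. None of these 4 shortest runs enclosed a shared or KO-only peak, but they were chosen by their short span. The rule kept KO peaks at a distance from every chosen peak. In the runs at Ust and Tars the spaces between chosen peaks were too short to hold a KO peak. The absence there follows from the rule, and no conclusion is drawn from it at any of these runs. The number of runs rose to 68 with the KO list cut to its first 75%. It was 5 with the WT list cut so, where the low-ranked rows were partly others.

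At least 1 of the peaks was nearest to 2116 of 21887 protein-coding genes (9.67%), and KO-only peaks were nearest to 1602 (7.32%), with 424 genes in both. Most genes had only 1: 1703 genes had 1 peak, 318 had 2, 71 had 3, 19 had 4, 3 had 5, 1 had 6 and 1 had 11. Genes with 3 or more numbered 95, against 58 for KO-only peaks, and 42 when all genes of the table, noncoding ones included, took the place of protein-coding genes in the rule. The nearest gene is a position and does not show on which gene a site acts. Counts at genes below are of low-ranked peaks between genes unless higher-ranked ones are named.

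Bcl11b itself had 1 such peak (chr12:107908752-107908970), 1.54 kb past its downstream end and 12.6 kb from the nearest KO peak. It had 0 with low-ranked as the last 33.3% of rows or with a gene distance of 5 to 100 kb, 2 when only overlap counted and 4 with the KO list cut to its first 75%. A pair of KO-only peaks lay 2.26 and 37.9 kb upstream of Bcl11b. Foxp3 and Il2ra, which encodes the high-affinity chain of the IL-2 receptor, had neither kind. Ctla4, whose product restrains costimulation, had 1 higher-ranked and 0 low-ranked WT-only peaks and 2 low-ranked KO-only peaks, 20.1 and 45.8 kb upstream. With the KO list cut to its first 75% it had 2 low-ranked WT-only peaks. Ikzf2, the gene of Helios, had 3 WT-only peaks, at 16.5, 59.9 and 61.7 kb from its ends, 2 KO-only peaks at 17.5 and 69.8 kb, and 1 higher-ranked peak of each kind.

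Btg1, an antiproliferative gene linked to T cell quiescence, had the most after Pls3. Its 6 peaks stood 97.5, 47.4, 41.6, 18.7 and 7.39 kb upstream and 33.7 kb downstream, among 8 higher-ranked and 2 low-ranked shared peaks and beside 1 KO-only peak. Each was 1.36 to 9.74 kb from a KO peak and had 1 to 6 shared peaks within 20 kb. Xcl1, the gene of a chemokine made by cytotoxic and NK cells, had 5, at 42.8 and 26.4 kb downstream and 37.5, 78.2 and 85.7 kb upstream. It had 0 low-ranked KO-only peaks, 1 higher-ranked one and 6 higher-ranked shared peaks.

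Tagap, a GTPase-activating protein gene of activated T cells, had 4, all upstream, at 41.2, 23.4, 14.7 and 12.2 kb, with 4 low-ranked shared peaks among them. Its gene end had a peak in WT and not in KO, as did that of Spag16, a gene of the sperm and cilium axoneme. The reverse, a gene-end peak in KO and not in WT, was seen at Prdm1 and Zeb2, described below. Tnfsf11, which encodes the cytokine RANKL, had 1 peak 3.58 kb downstream and 3 at 43.8, 45.0 and 74.0 kb upstream, and 1 KO-only peak 22.8 kb upstream. Tank, a regulator of NF-kB signalling, had peaks at 94.6, 74.9 and 54.1 kb upstream and 14.3 kb downstream, among 5 higher-ranked shared peaks. It also had 1 KO-only peak 1.52 kb downstream and 2 higher-ranked WT-only peaks. Icos, a costimulatory receptor of activated and regulatory T cells, had 4, at 5.91, 12.6, 35.1 and 67.9 kb from its ends, beside 2 KO-only and 4 low-ranked shared peaks.

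Other genes had fewer shared peaks or none. Actbl2, an actin-like gene, had 5 within 29.1 kb, no other peak nearest to it and gaps of 171 to 220 kb to the nearest KO peak. Ndfip2, an adaptor of Nedd4-family ubiquitin ligases, had 4, at 25.9 and 18.2 kb upstream and 19.6 and 88.5 kb downstream, and no other peak between genes. Ppp4r2, a regulatory subunit of protein phosphatase 4, had 4 and no other, and AA414768 on X had 3 and no other. AA414768 entered by the tie rule, which put genes with fewer KO-only peaks first, so its lack of KO-only peaks is part of the choice. Rnf145, an ER ubiquitin ligase gene, and Tsen15, a subunit of the tRNA splicing endonuclease, had 4 each, with 1 higher-ranked shared peak. Slc37a3 and Tars had 4 with 1 low-ranked shared peak each, and Ddr1, a collagen receptor, had 4 with 2. Pabpc2, a poly(A)-binding protein gene, had 4 with 1 low-ranked and 1 higher-ranked shared peak, and Spag16 had 4 with 1 and 2. Itm2b, a membrane protein gene, had 4 with 1 low-ranked KO-only peak, and Sh3tc2 had 4 with 1 KO-only and 1 shared. D16Ertd472e had 5 with 1 KO-only, 2 low-ranked shared and 2 higher-ranked shared peaks.

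Several of the leading genes also had 2 or more low-ranked KO-only peaks. Dyrk2, which encodes a kinase, was nearest to 4 peaks of each kind, and Ust had 4 and 2. Tmsb4x on X, which encodes the actin-binding peptide thymosin beta 4, had 4 WT-only, 3 KO-only and 5 low-ranked shared peaks. Gm15319 had 4 WT-only and 6 KO-only peaks, in a region of chromosome 8 with near-identical gene copies, so its counts are uncertain. Of the 24 genes with 4 or more of the peaks, 14 had 4 or more when low-ranked meant the last 33.3% of rows. After a cut of the WT list to its first 75%, where the low-ranked rows were partly others, 2 did. With all genes of the table in the rule, 4 did and 9 had 0, namely Pls3, Xcl1, Tagap, Ddr1, Slc37a3, Sh3tc2, Tmsb4x, Dyrk2 and Gm15319.

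**Figure D3:**
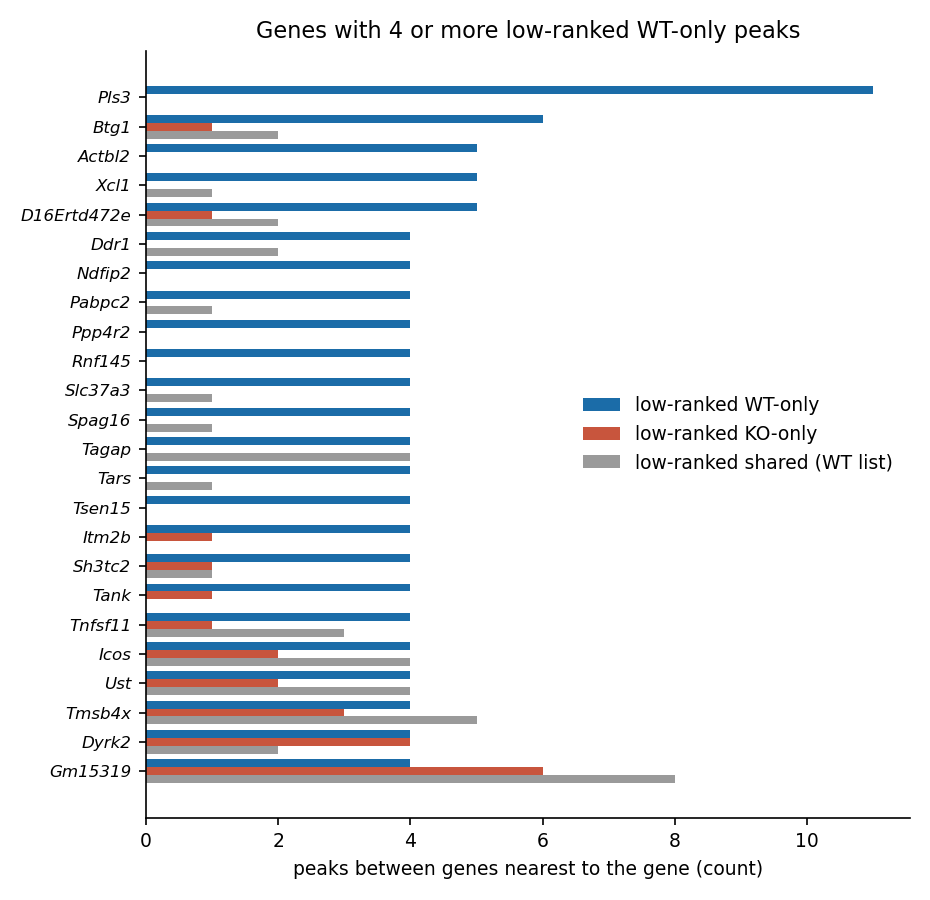
Number of low-ranked peaks between genes (horizontal axis, count) nearest to each of the 24 genes with 4 or more WT-only ones (vertical axis), for WT-only, KO-only and shared peaks. Pls3 has 11 WT-only peaks and no other, whereas Dyrk2 has 4 of each genotype-specific kind and Gm15319 more KO-only than WT-only.

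**Figure D4:**
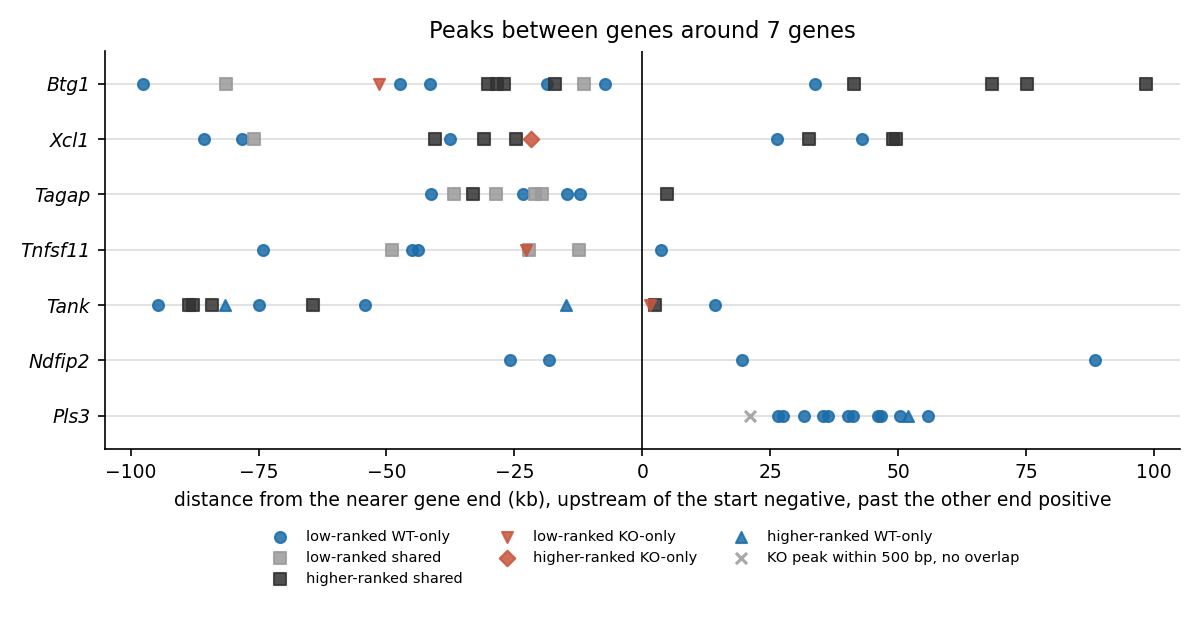
Distance of each peak between genes from the nearer end of its gene (horizontal axis, kb, negative upstream of the start) for 7 genes (vertical axis), by kind of peak. The WT-only peaks of Btg1, Xcl1, Tagap and Tank stand among shared peaks, those of Ndfip2 stand alone and those of Pls3 form 1 dense run.

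The lists of T cell and other genes held both kinds of peak. Of 306 list genes, 80 (26.1%) were nearest to at least 1 WT-only and 82 (26.8%) to at least 1 KO-only peak, with 127 and 108 peaks, beside 9.67% and 7.32% of all genes. WT-only peaks outnumbered KO-only ones in 9 of 19 lists, were fewer in 5 and equal in 5. Over all protein-coding genes there were 2660 and 1916, so equal counts in a list lie below that ratio. Some genes, such as Icos, Gata3, Bcl2 and Hif1a, stand in more than 1 list. In each of the 19 lists the interval of the WT-only share among low-ranked WT peaks included the 39.7% of all such peaks. The intervals were wide, 1.26 to 98.7% for 2 peaks at B cell genes and 28.1 to 55.9% for 53 at T cell receptor signalling genes. They cannot show that no list differed. With all genes of the table in the rule, the share of list genes fell to 14.1%. Among list genes with equal WT-only counts, those with fewer KO-only peaks were named first, so the absence of KO-only peaks at them is partly a choice.

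Naive and resting T cell genes had 15 WT-only and 7 KO-only peaks, and 9 of 20 genes had a WT-only one. Foxo1, a factor that keeps T cells quiescent, had 3 WT-only and 2 KO-only. Bach2, a repressor that holds back effector fates, had 2 WT-only peaks 8.998 and 13.01 kb upstream and no KO-only peak. Bcl2, the survival gene, had 2 at 15.1 and 26.5 kb downstream and no KO-only, and Ccr7, the lymph node homing receptor, had 2 and 1. T cell receptor signalling genes had 22 WT-only and 11 KO-only peaks, with a WT-only one at 11 of 33 genes. Cd28, the costimulatory receptor, Lat, the adaptor of the receptor signal, and Ubash3b, a phosphatase that dampens it, had 3 WT-only and 1 KO-only each. Egr2, an early response factor, had 2 and 0.

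Follicular helper genes had 12 WT-only and 3 KO-only peaks. Of these 12 genes, 7 had a WT-only peak, 6 had more WT-only than KO-only peaks and 0 had fewer. Over all protein-coding genes, 1799 had more WT-only and 1238 more KO-only peaks. The WT-only share among low-ranked WT peaks at the 12 genes was 48.0% (interval 27.8 to 68.7%), which includes the 39.7% of all such peaks. Besides Icos, they included Bcl6, the lineage factor of these cells, with 2 WT-only peaks 11.2 kb downstream and 62.3 kb upstream, and Btla, an inhibitory receptor, with 2. Neither gene had a KO-only peak. Icos alone gave 4 of the 12, and it also stands in the Treg identity list.

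Treg identity genes had 14 WT-only and 13 KO-only peaks, and 6 of 26 genes had a WT-only one. Izumo1r, the folate receptor 4 gene, and Nt5e, which encodes the ectoenzyme CD73, had 2 WT-only and 0 KO-only each. Effector and tissue Treg genes had 14 and 15, with more WT-only peaks at 6 genes and more KO-only peaks at 9. A KO-only peak was nearest to 13 of these 20 genes and a WT-only peak to 10. The genes with the most WT-only peaks were Areg, the growth factor amphiregulin, Ccr2, a chemokine receptor, and Gata3 at 2 and 0, and Prdm1, which encodes Blimp-1, at 2 and 1. The whole stretch between Ccr3 and Ccr2 held 3 WT-only and 4 KO-only peaks. The cytotoxic, NK and innate lymphoid list had 11 of each kind, 5 of the WT-only ones at Xcl1, and 2 of its genes had more WT-only and 5 more KO-only peaks. Zeb2, a factor of terminal effector cells, had 2 of each.

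T cell transcription and chromatin factors had 14 WT-only and 11 KO-only peaks. The ETS factor gene Fli1 and Zfpm1, which encodes the GATA cofactor FOG-1, had 2 and 0, and Runx1 had 2 and 1. Of higher-ranked peaks between genes, Runx1 had 0 WT-only and 2 KO-only. Th1 genes had 6 of each, with 3 and 0 at Ifngr1, whose product binds interferon gamma. Th2 genes had 2 WT-only and 7 KO-only peaks, and Th17 genes 8 and 4, with Hif1a, the hypoxia factor, at 3 and 0 and Ahr, the aryl hydrocarbon receptor, at 2 and 1. Cytokine receptor and STAT signalling genes had 5 and 8, with Tgfbr2, a TGF-beta receptor chain, at 2 and 1. Apoptosis and survival genes had 5 of each, metabolism and mTOR genes 3 of each and housekeeping genes 2 and 1, both WT-only ones at the 14-3-3 gene Ywhaz.

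Short lists of markers of other cell types held both kinds of peak. B cell genes had 1 WT-only and 0 KO-only peaks, erythroid and megakaryocyte genes 1 and 0, and non-lymphoid genes 1 and 2. CD8 T cell genes had 2 of each and myeloid genes 3 and 6. A WT-only peak was nearest to 2 of 7 CD8 T cell genes (28.6%) and 3 of 14 myeloid genes (21.4%), beside 23.1% of the Treg identity genes and 9.67% of all genes. A KO-only peak was nearest to 5 of the 14 myeloid genes (35.7%), beside 30.8% of Treg identity genes and 7.32% of all genes.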

How the data were processed

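Peaks of 3 WT and 3 KO samples were analysed from 1 list per group. The build was mm10, and HOMER 4.10.1, HISAT2 2.1.0, deepTools, SAMtools 1.3, Trim Galore 0.4.2, FastQC and cutadapt 1.12 were used, per the submitters' processing notes, which name no roles. The score the authors deposited is 1 in every row, so it holds no height. The joining of replicates, the peak limit and any shift of reads are not stated in the sources used here.

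Gaps, gene distances and counts were computed in pandas 2.3.3, scipy 1.17.1 and numpy 2.4.6 under Python 3.11.15, and plots drawn in matplotlib 3.10.9. The code was tested on simulated data. Genes came from RefSeq GRCm38.p6 (21887 protein-coding genes, 17492 with a listed start and strand), and 306 of 307 list genes matched, Dec1 not. GC and motif content over all peaks, which needs a genome sequence, was left out.

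The set, its rule and the gene lists were chosen with earlier results of these data known. Genes were named by rule: Bcl11b, Foxp3, Il2ra, Ctla4 and Ikzf2, the 25 genes with most of the peaks, up to 4 genes per list with at least 2, the 5 runs with most peaks (ties by the shortest span) and the 3 lowest and 3 highest rows. Ties among the 25, and among the genes of a list, put genes with fewer low-ranked KO-only peaks first. miRNAs, spaces between genes, the lncRNA genes shown with sequences and the genes of the farthest peaks were chosen after their values were seen.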

Additional observations from a re-analysis of the deposited data

How the results depend on the processing

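No paired analysis was possible because the files hold no values per replicate, and leaving out replicates was not run for the same reason. The depth is unknown, and the cause of the changes below was not tested. With low-ranked as the last 33.3% of rows, the WT-only share was 49.1%, the median KO gap 13.4 kb, the shares on autosomes and X 48.4% and 67.1%, and 12.7% stood in pairs or runs. When only an overlapping KO peak counted, these were 45.9%, 9.24 kb, 45.4% on autosomes and 16.2% in pairs or runs. With no KO peak allowed within 2 kb they were 35.9%, 13.7 kb and 35.3% on autosomes.

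With the KO list cut to its first 75% there were 4565 peaks, a share of 68.1%, a gap of 16.9 kb, 67.6% on autosomes, 83.2% on X, 22.3% in pairs or runs, 68 runs, 274 genes with 3 or more and 35.3% of list genes. With the WT list cut so, these were 1006, 21.0%, 6.72 kb, 20.6%, 36.4%, 10.9%, 5, 19 and 16.3%. With all genes of the table the share was 42.4%, the gap 14.2 kb, the distance to a gene end 10.3 kb, the autosomal share 41.9%, 11.8% in pairs or runs, 14 runs, 42 genes with 3 or more and 14.1% of list genes. A gene distance of 5 to 100 kb gave a median distance of 20.8 kb. Numbering rows within each chromosome, autosomes alone and whole tie blocks, an alternative chosen after seeing the data, moved none of these summary values beyond their limits.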

Other observations

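The stretches between neighbouring protein-coding genes show where the low-ranked WT-only peaks gathered, whichever gene was nearer. The stretches named here were chosen after their values were seen. Of 19697 stretches, 2006 held at least 1 of the peaks, and 1539 of these held no low-ranked KO-only peak. How many of all stretches held no such KO-only peak was not counted, so the 1539 do not show a separation of the 2 kinds. A shared peak lay in 1107 of the 2006, which held 61.1% of the peaks. The stretches with a WT-only peak had a median length of 75.7 kb. Stretches with 4 or more numbered 42, against 21 with 4 or more KO-only peaks, from sets of 2660 and 1916 peaks.

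After the stretch from Rab39b to Pls3, with 11, the one from Eea1 to Btg1 held 7 WT-only and 1 KO-only peaks. Between Ikzf2 and Spag16, 139.5 kb apart, lay 6 WT-only and 0 KO-only peaks, beside 1 low-ranked and 4 higher-ranked shared peaks, so that the peaks counted at Spag16 and some of those at Ikzf2 share 1 stretch. Kdm7a to Slc37a3 held 6 and 0, Rap1b to Mdm1 6 and 1, Hivep2 to Adgrg6 5 and 0 and Xcl1 to Tbx19 5 and 0. Fndc1 to Tagap held 5 and 1, Tnfsf11 to Akap11 5 and 2 and Olig3 to Ifngr1 4 and 0. Other stretches leaned to the KO list: Ifitm1 to Ifitm3, genes of interferon-induced membrane proteins, held 0 WT-only and 5 KO-only peaks, and Lyrm9 to Nos2, the inducible nitric oxide synthase gene, 0 and 4.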
